A study of Caenorhabditis elegans with 2 samples.

Results

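Peaks of PHP-3, which belongs to the posterior class of Hox proteins, are described at 10 genes of the intestine of the worm Caenorhabditis elegans. They come from ChIP-seq, in which DNA bound by a tagged protein is pulled down with an antibody and sequenced. The genes were elt-2, elt-7, elt-4, end-1, end-3, ges-1, pept-1, spl-1, pho-1 and asp-1, of 19973 protein-coding genes. A peak was given to a gene when its summit, the position that the deposited lists name within a peak, lay in the gene body or upstream of it as far as the next protein-coding gene. The genes were chosen on the signal and score of the same peak lists, so their counts and levels are a description and no test was made of them.

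Both libraries came from 1 strain, RW12213, whose allele st12213 carries TY1, EGFP and 3xFLAG tags inserted at php-3 on chromosome III by CRISPR; there was no other genotype or treatment. The worms were L4 larvae, 48 hours of age, grown from L1 larvae that had been starved after bleaching, and an antibody against GFP was used. The data comprised 2 biological replicates of whole worms, so the tissue in which PHP-3 met a site cannot be told from these values, and no comparison between conditions was made. The larger series-wide thresholded list held 3559 peaks and the conservative one 3495; each replicate's own thresholded list held fewer, 1728 in replicate 1 and 2000 in replicate 2. Read depth is unknown.

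In C. elegans the intestine descends from a single founder cell of the embryo. The GATA factors END-1 and END-3 specify this endoderm, and the GATA factors ELT-7 and ELT-2 then drive and maintain intestinal differentiation, binding sites with the sequence TGATAA upstream of many intestinal genes. ELT-2 is present through the life of the worm, whereas end-1 and end-3 are known as genes of the early embryo. Hox proteins of the posterior group prefer sites that begin with TTTA, and in C. elegans they are best known for patterning the tail region.

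By this rule 7 of the 10 genes had a peak in the larger thresholded list: elt-2, elt-7, end-1, pept-1, spl-1, pho-1 and asp-1. Of all protein-coding genes, 15.3% had one. The conservative list also gave 7 of 10, with elt-4 in place of elt-7, against 15.3% of all genes, and end-3 and ges-1 had no peak in either list. The replicates' own lists gave 4 of 10 in replicate 1, against 8.55% of all genes, and 6 of 10 in replicate 2, against 9.62%. Long regions have more room for a peak: the regions of the 10 genes ran from 2336 to 12317 bp, with a median of 6085 bp against 3538 bp for all genes, and among genes with regions in that range 16.5% had a peak in the larger list. The members were chosen with these peaks known, so nothing is read from the difference.

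The sequences at 7 of the upstream peaks are shown first because they carry the positions described below. Each window is 201 bases on assembly ce11 (RefSeq genome of WBcel235), centred on a summit and written 5′ to 3′ in the direction of the gene. Capitals mark TGATAA, or its reverse complement TTATCA, and any of 8 posterior Hox words (TTTATGA or TTTATGG or TTTATTA or TTTATTG or TTTACGA or TTTACGG or TTTACTA or TTTACTG) on either strand. No TGATAA match overlapped a Hox match in these windows. The elt-2 windows are chrX:10480688-10480888 and chrX:10479452-10479652 (plus strand), elt-7 is chrV:4770342-4770542 (plus), elt-4 is chrX:10475221-10475421 (plus), pept-1 is chrX:6456640-6456840 (plus), spl-1 is chrIV:383417-383617 (minus) and asp-1 is chrV:19053345-19053545 (minus).
elt-2, nearer peak: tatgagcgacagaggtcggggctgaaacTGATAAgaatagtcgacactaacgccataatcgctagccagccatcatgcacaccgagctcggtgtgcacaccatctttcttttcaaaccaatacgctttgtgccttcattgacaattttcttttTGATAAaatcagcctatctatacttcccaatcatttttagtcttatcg
elt-2, farther peak: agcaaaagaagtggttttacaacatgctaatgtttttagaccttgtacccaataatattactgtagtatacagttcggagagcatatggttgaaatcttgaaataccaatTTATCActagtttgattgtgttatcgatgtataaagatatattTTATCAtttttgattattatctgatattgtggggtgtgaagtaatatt
elt-7: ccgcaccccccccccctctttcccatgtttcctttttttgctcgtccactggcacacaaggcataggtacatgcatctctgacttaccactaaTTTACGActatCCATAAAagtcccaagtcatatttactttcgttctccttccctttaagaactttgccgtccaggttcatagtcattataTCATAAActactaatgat
elt-4: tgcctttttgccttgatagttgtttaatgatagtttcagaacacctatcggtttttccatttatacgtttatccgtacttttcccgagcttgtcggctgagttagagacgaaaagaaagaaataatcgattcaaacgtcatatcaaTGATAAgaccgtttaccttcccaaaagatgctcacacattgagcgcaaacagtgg
pept-1: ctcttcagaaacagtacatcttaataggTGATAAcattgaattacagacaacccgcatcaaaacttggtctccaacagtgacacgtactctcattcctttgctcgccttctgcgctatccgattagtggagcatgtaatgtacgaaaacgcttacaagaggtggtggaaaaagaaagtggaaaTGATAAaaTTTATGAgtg
spl-1, nearer peak: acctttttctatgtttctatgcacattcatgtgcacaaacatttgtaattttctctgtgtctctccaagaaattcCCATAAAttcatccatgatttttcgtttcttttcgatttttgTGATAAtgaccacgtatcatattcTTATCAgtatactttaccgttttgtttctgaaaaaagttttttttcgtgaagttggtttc
asp-1, farthest peak: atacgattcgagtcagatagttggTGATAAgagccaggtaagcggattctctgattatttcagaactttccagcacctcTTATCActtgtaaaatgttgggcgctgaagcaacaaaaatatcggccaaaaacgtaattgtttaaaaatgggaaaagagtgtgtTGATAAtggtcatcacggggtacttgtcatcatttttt

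Those sequences hold TGATAA at 6 of the 7 sites and a posterior Hox word at 3. They are a choice of 10 windows without coding or UTR sequence, of which 8 held TGATAA and 5 a Hox word. Those of the 10 not shown include the farther spl-1 window, with a Hox word and no TGATAA, and the asp-1 window 844 bp upstream, with both. Windows of that length held TGATAA at 44.2% and a Hox word at 39.45% of all 3559 peaks. Those peaks were not filtered for coding sequence and do not include that of elt-4, so the 10 windows are not a like set. At the 12 peaks of the larger list, 8 such windows held TGATAA and 6 a Hox word. The exception for TGATAA among the 7 is elt-7, whose window has 3 Hox words (TTTACGA and, read on the other strand, CCATAAA and TCATAAA). In pept-1 and spl-1 both kinds stand in the same window. All 12 peaks of the 10 genes in the larger list were 324 bp wide with the summit at their middle. The same held for all 3170 peaks of that width in the list, so the summit names the middle of the interval. How closely it locates binding was not tested.

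The stronger of the peaks at elt-2, which encodes the main GATA factor of the intestine, was the strongest of the whole set. It lay on X (10480626 to 10480949), with its summit 452 bp upstream of the gene (WBGene00001250; X, 10481240 to 10483441). Its signal value, which the deposited lists give in a scale that they do not state, was 104 in replicate 1 and 130 in replicate 2. In the larger series-wide list it was 236, rank 382 of 3559. A further peak (10479390 to 10479713) stood 1688 bp upstream, with signal values of 57.8 in replicate 1, 77.8 in replicate 2 and 127 series-wide. Both passed the score threshold in each replicate's own list, and replicate 2 was higher at both. The second lay 190 bp from the 5′ end of C33D3.6, a non-coding RNA gene. Elsewhere in the elt-2 region the ranked list held 3 other peaks, with signal values of 31.1 to 63.5, and none of them was kept.

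elt-7, whose protein acts in parallel with ELT-2, had a single kept peak (V, 4770280 to 4770603), 228 bp upstream of the gene (WBGene00015981; V, 4770670 to 4773086). Its signal value was 27.3 in replicate 1, 58.4 in replicate 2 and 83.7 series-wide, rank 3158 of 3559. Neither replicate's own list kept it. Its score, which is scaled from the irreproducible discovery rate (IDR, the disagreement between paired lists) and reaches at most 1000, was 842 in the larger list and 447 in the conservative ranked list, while 830 was the lowest score kept. The summit also lay upstream of the divergent gene C18G1.9.

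elt-4 (WBGene00001252; X, 10475527 to 10475959), a short GATA factor gene 5280 bp from elt-2, showed the reverse. Its peak (10475159 to 10475482), 206 bp upstream, had a score of 948 in the conservative list but 560 in the larger ranked list. Signal values were 39.8 in replicate 1, 54.55 in replicate 2 and 83.3 series-wide. The replicate 1 summit stood 142 bp from the series-wide one, whereas that of replicate 2 was at the same position. Neither own list kept it. The series-wide lists thus differed on elt-4 and elt-7, and each gene's peak was kept by 1 of them and scored well below 830 in the other.

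The endoderm-specifying genes differed in where their peaks lay. end-1 (WBGene00001310; V, 13985128 to 13987074) had its only kept peak (13986844 to 13987167) at the other end of the gene, with the summit in the 3′ UTR, 68 bp before the annotated 3′ end. Signal values were 69.4 in replicate 1, 68.7 in replicate 2 and 146 series-wide, and both own lists kept it. It was the only one of the 12 member peaks at which replicate 2 was not the higher. The convergent gene ric-7 ends 89 bp beyond end-1 and 158 bp from the summit, and the peak reached its end, so the peak belongs to end-1 by the rule alone. Upstream of end-1 the strongest ranked peak, at 1929 bp, had a signal value of 59.1 and a score of 291.

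end-3 (WBGene00001311; V, 14014695 to 14015980), 27620 bp from end-1, had no kept peak. Its strongest ranked peak, 902 bp upstream, had signal values of 17.8 in replicate 1, 42.7 in replicate 2 and 70.1 series-wide. The score was 464 in the larger ranked list and 103 in the conservative one.

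Among the genes of differentiated intestine, pept-1 (WBGene00003877; X, 6456872 to 6461767), which encodes a di- and tripeptide transporter of the gut, had the strongest peak. It lay 132 bp upstream (6456578 to 6456901), with signal values of 69.9 in replicate 1, 85.1 in replicate 2 and 165 series-wide, rank 931, and both own lists kept it. The non-coding RNA gene K04E7.4 begins 228 bp from the summit, and the divergent gene nas-33 shares the upstream region. Another ranked peak, in a coding exon 3544 bp into pept-1, had a signal value of 85.0 but a score of 449 and was not kept.

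spl-1 (WBGene00004981; IV, 379885 to 383185), which encodes sphingosine-1-phosphate lyase, had 2 kept peaks of similar series-wide signal. The nearer (383355 to 383678), 332 bp upstream, had 35.5 in replicate 1, 99.35 in replicate 2 and 147 series-wide. The farther (385403 to 385726), 2380 bp upstream, had 52.6 in replicate 1, 110 in replicate 2 and 163 series-wide, and stood 322 bp from the 5′ end of rps-24, a divergent ribosomal protein gene. At the other 11 member peaks no protein-coding gene began closer to the summit than the member itself. Replicate 2's own list kept both and replicate 1's kept neither; their ratios of replicate 2 to replicate 1 were 2.795 and 2.08.

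asp-1 (WBGene00000214; V, 19049562 to 19050752), which encodes an intestinal aspartyl protease, had 3 kept peaks, the most of any member. The farthest, 2693 bp upstream (19053283 to 19053606), was the strongest, with 72.1 in replicate 1, 80.2 in replicate 2 and 160 series-wide, and alone among them was kept in both own lists. That at 844 bp upstream (19051434 to 19051757) had 46.3 in replicate 1, 68.5 in replicate 2 and 113 series-wide. The last (19050542 to 19050865), with its summit in the coding exon 48 bp inside the gene, had 39.8 in replicate 1, 59.9 in replicate 2 and 95.4 series-wide. Signal was higher the farther the summit lay from the 5′ end. The upstream region is shared with the divergent gene twk-46, whose 5′ end was farther from each.

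pho-1 (WBGene00004020; II, 5233156 to 5235846), which encodes an intestinal acid phosphatase, had 2 overlapping peaks. One (5235684 to 5236007) was centred on its annotated 5′ end, with a series-wide signal of 94.0. The other (5235883 to 5236206), 199 bp upstream, had only 11.99 although its score was also 1000. The authors' −log10 q value, higher for a more significant peak, was 1.29 at the stronger peak and only 0.038 at the weaker. Both overlapped the same replicate peak, of 40.8 in replicate 1 and 59.5 in replicate 2, whose summit lay between them, so they are not independent. Replicate 2's own list kept that peak and replicate 1's did not. The gene pho-4, which runs the same way, ends 410 bp upstream, and the lincRNA gene linc-49 begins 16 bp from the summit of the weaker peak. A ranked peak 813 bp inside pho-1, at 74.9, scored 675, the highest score of any unkept peak in the larger ranked list among the 10 regions.

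ges-1 (WBGene00001578; V, 1427653 to 1432137), which encodes a gut esterase long used as a marker of intestinal differentiation, had no kept peak. Its region held 16 ranked peaks, more than that of any other member. The strongest, 2498 bp upstream, had signal values of 32.7 in replicate 1, 39.7 in replicate 2 and 68.1 series-wide, with scores of 647 in the larger ranked list and 633 in the conservative one.

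**Figure D1:**
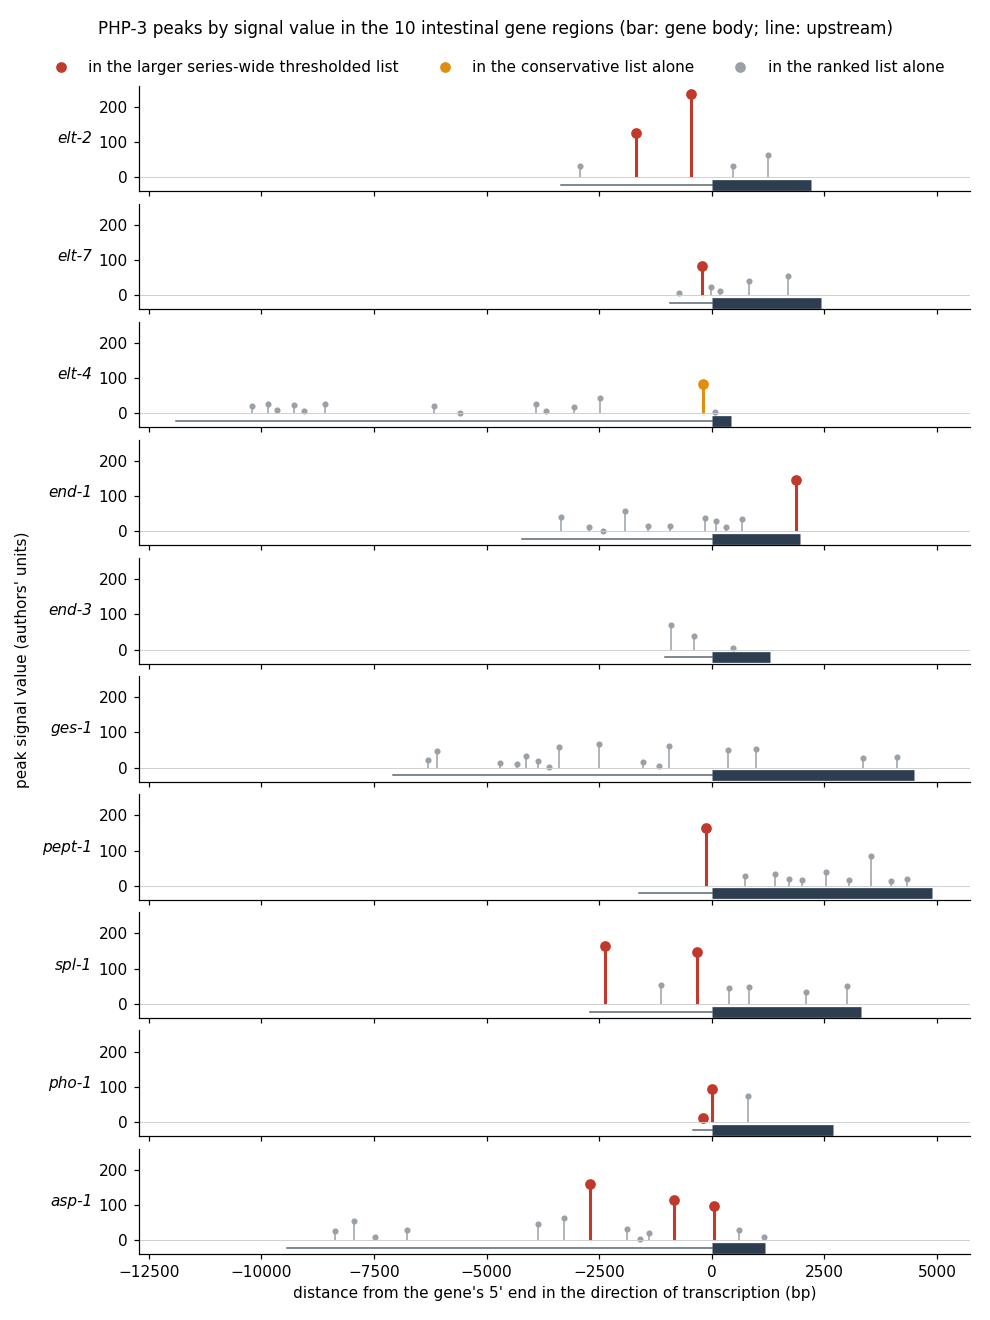
Peaks of the larger ranked list in the regions of the 10 genes, by distance from the gene's annotated 5′ end (bp, horizontal) and signal value (authors' units, vertical); red points were kept in the larger thresholded list and the orange point in the conservative list alone. The kept peak of end-1 stands near the 3′ end of the gene, 9 of the 12 kept peaks stand upstream, and end-3 and ges-1 have grey points alone.

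Taken over the genes, 9 of the 12 kept peaks lay upstream of the 5′ end, 6 of them within 1 kb, and for 11 the gene's own 5′ end was the nearest of any protein-coding gene. A divergent neighbour shared the region at 6 of the 12. The median signal of the 12 was 137, against 120 for the whole list. Of the 12, 1 lay above a signal of 168.5, 6 between 120.2 and 168.5, 2 between 94.88 and 120.2 and 3 below 94.88, bounds that divide the list into 4 equal parts, so most stood in the middle of the list rather than at its top. The regions of the 10 genes held 89 peaks of the larger ranked list, of which 12 (13.5%) were kept, against 3.71% of all 96056 ranked peaks. Since the genes were chosen with these peaks known, these shares support nothing further.

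**Figure D2:**
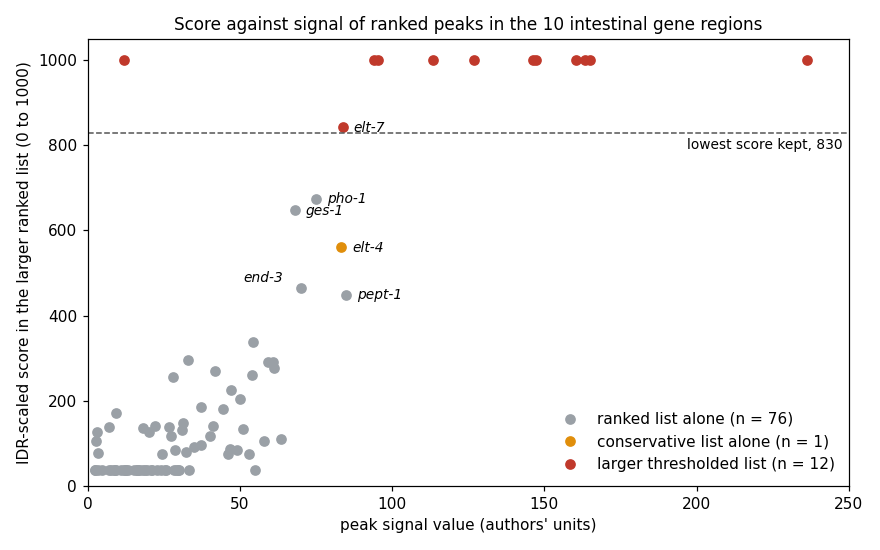
Score in the larger ranked list (0 to 1000) against signal value (authors' units) for the 89 ranked peaks in the regions of the 10 genes; the dashed line is the lowest score kept, 830. Of the 12 kept peaks 11 have a score of 1000 and elt-7 has 842, while unkept peaks of pho-1, ges-1, end-3 and pept-1 lie between 449 and 675, with elt-4 at 560 kept by the conservative list alone.

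The replicates gave the members unequal signal. Replicate 2 was higher at 11 of the 12 peaks, with a median ratio of replicate 2 to replicate 1 of 1.46 and a range of 0.990 to 2.795. Over 3493 peaks of the larger list with a value in each replicate, replicate 2 was higher at 67.3% and the median ratio was 1.14, with an interquartile range of 0.921 to 1.40. Both own lists kept 5 of the 12 peaks (41.7%, against 35.3% of all peaks): the pair at elt-2 and those at end-1, pept-1 and the far asp-1 site. Replicate 2's own list kept 4 more, at spl-1 and pho-1, and 3 were in neither list, those of elt-7 and the nearer peaks of asp-1. The 12 peaks share libraries, and the pho-1 pair shares a replicate peak, so no test was made of the ratio, and the part of read depth in it was not tested.

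**Figure D3:**
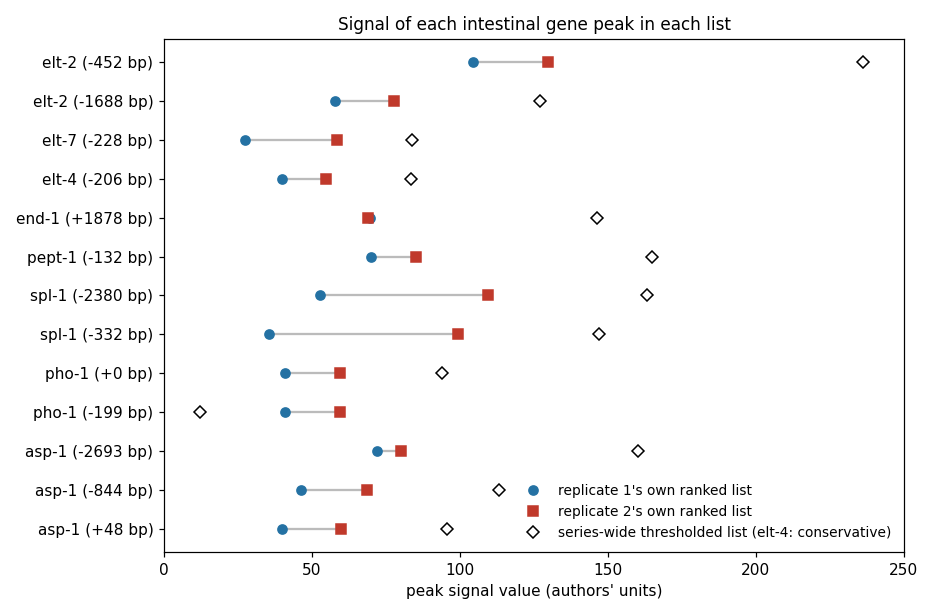
Signal value (authors' units, horizontal) of each kept peak in replicate 1's own ranked list (blue circles), replicate 2's (red squares) and the series-wide list (open diamonds); the distance from the gene's 5′ end is beside each name, and elt-4 is from the conservative list. Replicate 2 stands to the right at every peak but that of end-1, and the gap is widest at spl-1.

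Sequence at the summits was not used by the rule. Within 50 bp of the summit, TGATAA on either strand stood at 5 of the 12 peaks: that of elt-2 1688 bp upstream, the nearer peak of spl-1, the weak peak of pho-1 and both upstream peaks of asp-1. Of windows of the same length at all 3559 peaks 29.9% held it, against 9.65% of 7070 windows centred 400 bp to each side. AGATAA stood at 1, that of end-1, where its complement TTATCT appears 2 times, at the summit and 5 bp on. Of all peaks 8.71% held AGATAA, and of flanking windows 5.955%. GATA alone, which is part of both, stood at 8 (59.3% of all peaks and 48.7% of flanking windows). Over the whole 324 bp, 10 of the 12 peaks held TGATAA, against 51.3% of all peaks taken over their own lengths. The exceptions were the spl-1 peak beside rps-24 and the asp-1 peak in coding sequence. Among the 10 are both pho-1 peaks, whose intervals overlap, so they are not independent. The strongest peak, at elt-2, had none within 50 bp and 2 within the interval. The median GC content of the 12 windows was 38.6%, with a range of 27.7% to 58.4%, against a median of 41.6% for all peaks.

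The posterior Hox words stood within 50 bp of 4 of the 12 summits, at elt-7, both peaks of spl-1 and the stronger of pho-1. Of all peaks 24.7% held one, and of flanking windows 19.5%. The stricter forms TTTATGA and TTTATGG, which are among the 8 words, stood at 2, elt-7 and the nearer spl-1 peak, each as CCATAAA on the other strand (8.43% of all peaks, 5.08% of flanking windows). Over the whole 324 bp, 7 of the 12 peaks held one of the 8 words, against 50.9% of all peaks. At the peaks kept in the replicates' own lists, read at their own summits, 0 of 5 in replicate 1 and 2 of 8 in replicate 2 held a Hox word, and 3 of 5 and 5 of 8 held TGATAA. A match is a description of the sequence and not a site of binding.

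Other genes of the pathway give the setting. Of the 4 genes that act above end-1 and end-3 (skn-1, med-1, med-2 and pop-1), only pop-1, the TCF factor of Wnt signalling, had a peak in the larger list, where 15.3% of all genes had one. Its peak stood 1411 bp upstream, with signal values of 80.8 in replicate 1, 61.8 in replicate 2 and 135 series-wide. The pop-1 region, at 23616 bp, was the longest of the 4. The summit lay 123 bp from the 5′ end of W10C8.12, a non-coding RNA gene, and was also in the region of ccb-2. None of the 6 other GATA factor genes (elt-1, elt-3, egl-18, elt-6, med-1 and med-2), which act mainly outside the differentiated gut, had a peak in any of the 4 thresholded lists. At shares of 8.55% to 15.3% of all genes in those lists, a count of 0 of 6 is near the background. Their regions ran from 1174 to 37244 bp. The strongest ranked peaks of 5 of them had signal values of 46.9 to 81.2, with a highest score of 650 at egl-18 (774 in the conservative ranked list), and med-2 had no ranked peak. By comparison elt-7 and elt-4 were kept at signal values of 83.7 and 83.3, just above that range. Peaks were kept by score and not by signal. In the larger ranked list the elt-4 peak scored 560, below that of egl-18, and a pept-1 peak with a signal of 85.0 was not kept.

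Of 16 other intestinal genes, whose regions ran from 496 to 30654 bp, 8 had a peak in the larger list, against 15.3% of all genes. They were nhx-2, a sodium-proton exchanger gene, with 429.5 (1835 bp upstream; 192 in replicate 1 and 246 in replicate 2), 153 and 120; erm-1, which links actin to the apical membrane, with 136.5 in an intron and 95.6; the intermediate filament genes ifc-2, with 123 and 116, and ifb-2, with 97.55; pqm-1, a zinc-finger factor gene, with 4 peaks of 72.4 to 120; the intestinal actin gene act-5, with 110; the ferritin gene ftn-1, with 108; and the metallothionein gene mtl-2, with 100.1. The act-5 peak stood 39 bp from the 5′ end of shpk-1 and 1915 bp from that of act-5. Both erm-1 peaks and the ifc-2 peak of 116 were also nearer the 5′ end of another coding gene. These were dnj-4 for the intronic erm-1 peak, hpo-32 for the other and M6.11 for ifc-2. No ranked peak of replicate 1 met the ifb-2 peak or the ifc-2 peak of 116. The conservative list lacked the ifb-2 and mtl-2 peaks, the erm-1 peak of 95.6 and the pqm-1 peaks of 120 and 72.4. The other 8 (cpr-1, cpr-6, mtl-1, eps-8, vha-6, cdr-1, glo-1 and pgp-2) had none, although cpr-6 had a peak in the conservative list. The conservative list held a peak at 7 of the 16, against 15.3% of all genes. Replicate 1's own list held a peak at 2 of the 16, against 8.55% of all genes, and replicate 2's at 7, against 9.62%. These 16 genes were also chosen with earlier results of these data known, so nothing is read from the differences.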

How the data were processed

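The values are from 8 peak lists that the authors deposited on assembly ce11, per the listing that came with the samples: a ranked and a thresholded list for each of 2 replicates, and 2 of each for the whole series. Aligner and peak caller: not given in the sources used here; IDR is named by the list titles. The signal (column 7) is a value per peak whose measure and scale the deposited files do not state. It was used to describe and rank peaks within a list. It was also used, as deposited, for ratios between the replicates, which carry any difference in that scale. The score, scaled from the IDR, and the −log10 q value are also the authors', per the deposited lists; the score is at most 1000. The larger thresholded list is a subset of 96056 ranked peaks, and the conservative list of another 95772.

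Genes came from Ensembl release 115 and sequence from the RefSeq genome, both of WBcel235, the same sequence as ce11, and every peak fell inside the chromosome it names. Where another protein-coding gene covered a 5′ end, no upstream part was counted. A replicate's value is the greatest signal among the peaks of its ranked list that meet the interval by at least 1 bp. Motifs were sought up to 50 bp from a summit on either side, flanking windows were centred 400 bp away, and those meeting a summit window were left out. The rule's code was tested on simulated data. No statistical test was made. The members, the lists of other genes and the motifs were chosen with earlier results of these data known. Values are given for every member and, of the other genes, for those with a peak in the larger list and the strongest ranked peaks of the GATA factor genes. The alternatives were the conservative list, each replicate's own list, peaks above the median signal, any overlap, upstream limits of 1000 bp or the next gene of any biotype, other windows, other rankings and overlap of 50% of both intervals. Python 3.11.15, numpy 2.4.6, pandas 2.3.3 and matplotlib 3.10.9 were used.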

Additional observations from a re-analysis of the deposited data

How the results depend on the processing

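The count of 7 of 10 genes with a peak was 7 in the conservative list, with any overlap, with either other upstream limit, 5 with peaks above the median signal, and 4 to 6 when a replicate was left out, the lower without replicate 2. The 12 peaks became 7 with peaks above the median signal and 5 to 8 when a replicate was left out; the other settings gave 9 to 13. TGATAA matches at 5 peaks became 3 in windows of 25 bp to each side, 8 in windows of 100 bp, and 3 to 5 when a replicate was left out. Posterior Hox matches at 4 peaks were 4 in windows of 25 bp, 6 in windows of 100 bp and 3 in the conservative list, and became 0 to 2 when a replicate was left out, on 5 and 8 peaks. The median member peak stood at percentile 60.5 of the list by signal, 66.5 by −log10 q, and 100 by score, where most peaks tie at 1000. By the signal of 1 replicate alone it stood at 32.3 to 58.8, the lower without replicate 2. The 5 peaks kept in both own lists remained 5 with overlap of 50% of both intervals. Read depth is unknown, so what it limits cannot be given.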

Other observations

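The tilt towards replicate 2 also appeared at the intestinal genes that are no members. Of their 15 peaks in the larger list, 13 had a value in each replicate, and replicate 2 was the higher at 12, with a median ratio of 1.67 and a range of 0.948 to 2.35, against 1.14 over all peaks. Replicate 2's own list alone kept 10 of the 15, both own lists kept 2, neither kept 3, and 0 were kept by replicate 1's alone. Over all 3559 peaks these shares were 17.9% in replicate 2's alone, 35.3% in both, 36.0% in neither and 10.8% in replicate 1's alone. Over all peaks with a value in each replicate, replicate 2 was higher at 67.3%. The 15 peaks came from 8 genes and the same libraries as the members, so no test was made of the ratio. The part of read depth in this was not tested.

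In these peaks of a posterior Hox protein, TGATAA set summits apart from the sequence beside them more than the Hox words did. TGATAA stood in 29.9% of summit windows against 9.65% of flanking ones, and the 8 Hox words in 24.7% against 19.5%. The stricter forms TTTATGA and TTTATGG stood in 8.43% against 5.08%. The words differ in length, number and share of flanking windows, so the contrasts are not on equal terms. The 2 kinds of site were described separately, and no relation between them was tested.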
